A study of Homo sapiens with 9 samples.

Results

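The Eph receptors were followed in TCam-2 cells, a human cell line derived from a testicular seminoma, in which the ESX1 gene had been activated with CRISPRa. The set holds 10 genes, EPHA1, EPHA2, EPHA3, EPHA4, EPHA6, EPHA7, EPHB1, EPHB2, EPHB3 and EPHB4, of 63856 genes in the deposited tables. They were chosen by gene symbol, with measured values of these samples in view, and EPHA4 is also among the genes that the study selected on its fold change against both controls. The values of these 10 receptors are therefore given as a description, with no p-value, and p-values are given only for genes outside the set. Where a receptor is counted as past the threshold of the fit over all genes, the count describes the values it was chosen on and is not independent evidence. Another 4 Eph receptors, EPHA5, EPHA8, EPHA10 and EPHB6, were not in the set and are described separately.

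Total RNA was sequenced in 9 samples, 3 biological replicates in each of 3 groups. The wild type (WT) was TCam-2 without modification. The negative control (NC) was TCam-2 transfected with the px335_G2P vector carrying gRNAs with no target in human DNA. The third group, ESX1, was TCam-2 transfected with px335_G2P vectors carrying gRNAs for the ESX1 gene together with PB-TRE-dCas9-VPR, in which a deactivated Cas9 is fused to a transcriptional activator under a doxycycline-dependent promoter. Transfected cultures went through antibiotic selection and doxycycline, and still held cells without the GFP of the gRNA vector, so each value is an average over modified and unmodified cells. Whether the NC cells also received the dCas9-VPR vector is not stated in the methods. If they did not, effects of dCas9-VPR itself and of ESX1 activation cannot be told apart in ESX1 versus NC. WT cells were not transfected, so in the comparison of NC with WT the effects of transfection, selection, doxycycline and the nonspecific gRNAs cannot be told apart. ESX1 itself, a homeobox transcription factor gene of the X chromosome, was at 3.13 to 4.08 normalized CPM (read pairs per 1000000, with TMM-scaled library sizes) in WT, 2.89 to 3.63 in NC and 31.4 to 57.0 in ESX1. The ESX1 gene therefore went with the labels in all 9 samples (log2 fold change 3.75 ± 0.24 (SE) versus WT and 3.86 ± 0.24 versus NC, adjusted p = 1.87e-08 and 4.48e-08 by edgeR's quasi-likelihood test).

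Eph receptors form the largest family of receptor tyrosine kinases. Their ligands, the ephrins, are tethered to the surface of a neighbouring cell, ephrin-A ligands by a lipid anchor and ephrin-B ligands by a membrane-spanning segment, so signalling takes place where cells touch. EPHA receptors bind mainly ephrin-A ligands and EPHB receptors mainly ephrin-B ligands, with EPHA4 known for binding both classes and EPHB4 for its preference for ephrin-B2. The signal passes forward into the receptor-bearing cell and in reverse into the ligand-bearing cell, and is known for repulsion, sorting and boundary formation between cells.

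The sequences upstream of EPHA2, EPHA4 and EPHA6 are shown because these receptors had the largest fold changes in the set, and because ESX1 encodes a homeodomain protein. Many homeodomains recognize the core TAAT, which is in capitals here on either strand (as TAAT or ATTA). Each sequence is the 250 bases upstream of a transcription start in RefSeq, on GRCh38.p14, written 5′ to 3′ along the gene.

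EPHA2 (chr1:16156070-16156319, minus strand): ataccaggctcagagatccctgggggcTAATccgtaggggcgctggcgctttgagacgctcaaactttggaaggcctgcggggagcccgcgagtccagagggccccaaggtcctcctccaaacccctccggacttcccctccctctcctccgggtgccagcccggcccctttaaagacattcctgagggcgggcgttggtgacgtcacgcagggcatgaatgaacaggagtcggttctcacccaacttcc
EPHA4 (chr2:221574203-221574452, minus strand): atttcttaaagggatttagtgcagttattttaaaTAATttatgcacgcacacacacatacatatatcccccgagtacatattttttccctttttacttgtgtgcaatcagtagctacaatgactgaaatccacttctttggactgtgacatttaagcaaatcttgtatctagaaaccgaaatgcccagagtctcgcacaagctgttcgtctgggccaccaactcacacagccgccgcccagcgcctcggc
EPHA6 (chr3:96814344-96814593, plus strand): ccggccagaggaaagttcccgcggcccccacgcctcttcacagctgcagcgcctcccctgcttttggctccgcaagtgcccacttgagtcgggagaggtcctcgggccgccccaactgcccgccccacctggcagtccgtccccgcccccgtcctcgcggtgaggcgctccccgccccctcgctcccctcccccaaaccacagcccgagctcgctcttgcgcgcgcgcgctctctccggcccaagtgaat

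The printed windows held 1 copy of TAAT for EPHA2, 1 for EPHA4 and 0 for EPHA6. EPHA4 and EPHA6 each have another RefSeq start inside the gene, not printed here, whose window held 0 copies for EPHA4 and 4 for EPHA6, the reverse of the printed windows. The last 18 bases of the EPHA2 window and the last 13 of the EPHA6 window lie in the first exon as annotated in the count table, and the EPHA4 window ends directly before the annotated gene. GC content was 63.2% for EPHA2, 43.2% for EPHA4 and 72.4% for EPHA6 in the printed windows, and 78.0% for EPHA4 and 37.2% for EPHA6 in the others, against a median of 58% over 35114 RefSeq windows of the same length. RefSeq held 15 such windows for the 10 receptors, with more than 1 start for EPHA4, EPHA6, EPHA7 and EPHB2. The EPHB2 windows nearly coincide and some EPHA7 windows overlap, so a match there can count more than once. The EPHB1 window lies inside the annotated gene. TAAT was present in 7 of these 15 windows and in 47.4% of all windows, and the longer TAATTA, which contains TAAT on both strands, in 0 of 15 and 4.35%. The GC box GGGCGG was present in 13 of 15 windows and in 42.6% of all windows, and TATAAA in 1 of 15 and 10.7%, each searched on both strands. Counted by gene, GGGCGG was present for 9 of 10 receptors and TAAT for 7 of 10. The shares over all windows are not a background for these counts, since a gene with more than 1 window has more chances of a match. No share by gene was counted. These matches are letters in a window and not measured binding.

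In the count table EPHA3 (ENSG00000044524.10), EPHA6 (ENSG00000080224.17), EPHB1 (ENSG00000154928.16) and EPHB3 (ENSG00000182580.2) lie on chromosome 3. EPHA2 (ENSG00000142627.12) and EPHB2 (ENSG00000133216.16) lie on chromosome 1, EPHA1 (ENSG00000146904.8) and EPHB4 (ENSG00000196411.9) on chromosome 7, EPHA4 (ENSG00000116106.11) on chromosome 2 and EPHA7 (ENSG00000135333.13) on chromosome 6. The counts used all exons of a gene and ignored the strand, so reads from an exon shared with an antisense gene cannot be assigned. Such overlap was largest for EPHA4, where 4.67% of the exon bases also lie in CTD-2308L22.1, and was at most 1.73% (EPHA1, with ZYX) for the other 9 receptors.

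A receptor was counted as past the threshold at an adjusted p below 0.05 and at least a 2-fold difference in the fit over 18452 tested genes, which included 9 of the 10 receptors. Against WT, EPHA2 and EPHA4 were higher and EPHA6 and EPHB4 lower past this threshold in ESX1, 4 of 9, where 6.78% of all tested genes were higher and 4.77% lower. Against NC, EPHA4 was higher and EPHA6 lower, 2 of 9, where the shares over all tested genes were 1.08% and 0.699%. In NC versus WT, EPHA2 was higher, 1 of 9, where 3.12% of tested genes were higher and 2.15% lower. EPHA4 and EPHA6 thus passed against both controls, a class that held 0.948% (higher) and 0.585% (lower) of tested genes. Since the receptors were chosen on these samples, nothing about the family is read from these shares. The 3 comparisons share samples in pairs, ESX1 samples between the first and the second and control samples with the third, and their values are given side by side.

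**Figure D1:**
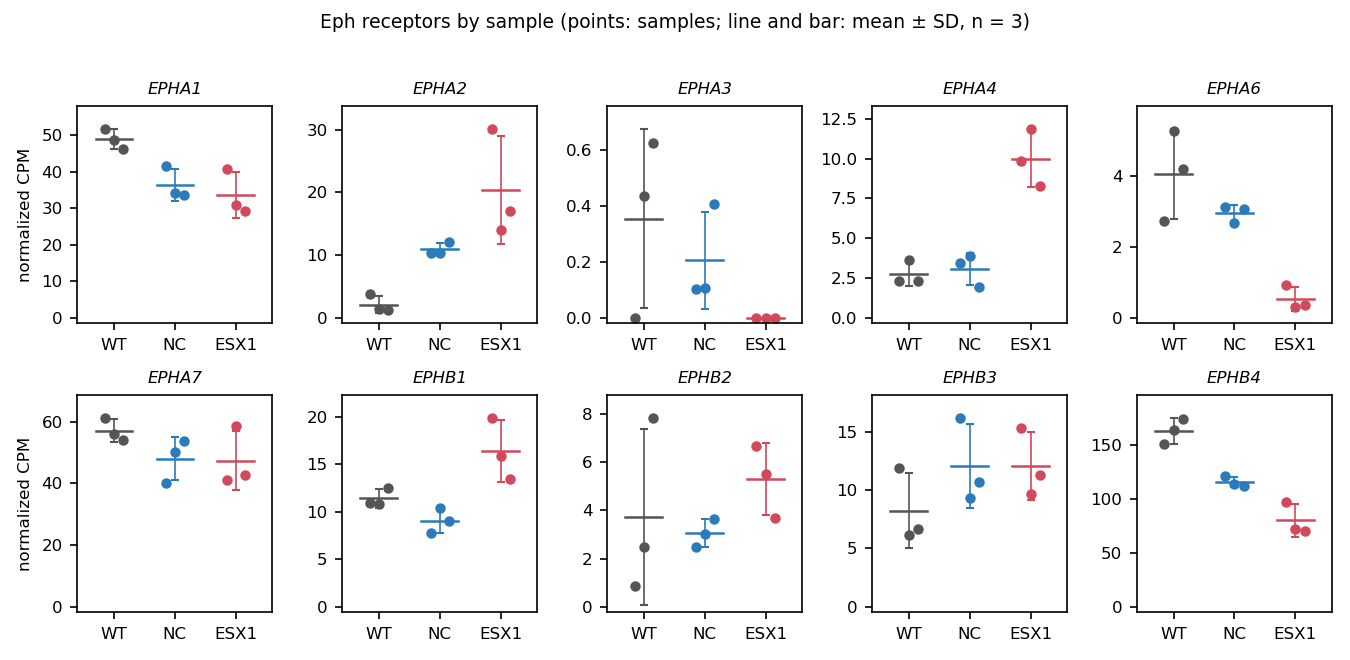
Normalized CPM (vertical axis, linear) of the 10 Eph receptors in the 3 WT, 3 NC and 3 ESX1 samples. Points are samples, the horizontal line is the group mean and the vertical bar the SD. The ESX1 points of EPHA2, EPHA4 and EPHB1 lie above all 6 control points, and those of EPHA6 and EPHB4 below.

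EPHA4, the receptor that binds ligands of both classes, was the member with higher values in ESX1 than in either control and overlapping values in the controls. Its normalized CPM was 2.29, 3.64 and 2.30 in WT replicates 1 to 3, 3.42, 3.86 and 1.93 in NC, and 9.84, 11.9 and 8.31 in ESX1. The controls overlapped each other, and the lowest ESX1 sample was more than 2-fold above the highest control. The log2 fold change was 1.89 ± 0.31 (SE) versus WT and 1.71 ± 0.30 versus NC, and 0.18 ± 0.33 for NC versus WT. These values rest on 68 read pairs in WT, 88 in NC and 260 in ESX1. Over 17 settings of the analysis it ranged from 1.18 to 2.12 versus WT and from 1.10 to 1.90 versus NC, with the lowest value of each from limma on the authors' log2 values.

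EPHA2, a receptor with raised levels in many carcinomas and known for binding ephrin-A1, differed between the control groups as well. Its normalized CPM was 3.71, 1.31 and 1.25 in WT, 10.4, 10.3 and 12.0 in NC, and 30.1, 14.0 and 17.0 in ESX1. No 2 groups overlapped, and the levels lay in the order WT, NC, ESX1. The log2 fold change was 3.26 ± 0.36 versus WT, 2.35 ± 0.37 for NC versus WT and 0.91 ± 0.30 for ESX1 versus NC. WT replicate 1 was the highest WT sample, and without it the values versus WT were 3.98 for ESX1 and 3.07 for NC. With limma on the authors' log2 values they were 2.18 and 1.501. ESX1 replicate 1 was the highest of all samples, and the value versus NC ranged from 0.50 without that sample to 1.13 without ESX1 replicate 2.

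EPHA6, a receptor known mainly from brain and retina, was lower in ESX1 than in either control. Its normalized CPM was 2.73, 5.25 and 4.18 in WT, 3.11, 2.68 and 3.05 in NC, and 0.91, 0.30 and 0.37 in ESX1. WT and NC overlapped, and every ESX1 sample was below every control. The counts were 25, 36 and 40 read pairs in WT, 30, 25 and 30 in NC and 9, 3 and 2 in ESX1, so the ESX1 level rests on 14 read pairs. The log2 fold change was -2.84 ± 0.47 versus WT, -2.40 ± 0.47 versus NC and -0.45 ± 0.37 for NC versus WT. Without ESX1 replicate 1, the highest of that group, it was -3.57 versus WT and -3.12 versus NC. With limma on the authors' log2 values it was -1.17 and -0.94, the last short of 2-fold.

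EPHB4, the receptor of ephrin-B2 known for its part in separating veins from arteries, had the highest level of the set in every group. Normalized CPM values were 151, 164 and 175 in WT, 121, 114 and 112 in NC, and 97.5, 72.5 and 70.6 in ESX1. The 3 groups did not overlap, and their order was the reverse of that of EPHA2. The log2 fold change was -1.02 ± 0.13 versus WT, -0.53 ± 0.13 versus NC and -0.50 ± 0.13 for NC versus WT. The first value lies at the 2-fold limit and was 2-fold or more under 10 of 17 settings, with a range from -1.19 to -0.91. It was short of 2-fold without WT replicate 3 (-0.98), NC replicate 3 (-0.998), ESX1 replicate 2 (-0.96) or ESX1 replicate 3 (-0.91).

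EPHB1, an EPHB receptor known from axon guidance at the optic chiasm, showed smaller differences. The samples stood, in normalized CPM, at 10.9, 10.8 and 12.5 in WT, 7.77, 10.4 and 9.06 in NC, and 19.9, 15.9 and 13.5 in ESX1. All ESX1 samples lay above all controls, although ESX1 replicate 3 was close to WT replicate 3. The fold change on a log2 scale was 0.87 ± 0.20 versus NC and 0.53 ± 0.20 versus WT, both short of 2-fold.

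EPHA1, the first Eph receptor to be described, was lower in both transfected groups than in WT. In normalized CPM it was at 51.6, 48.7 and 46.3 in WT, 41.5, 34.1 and 33.7 in NC, and 40.8, 30.8 and 29.2 in ESX1. NC and ESX1 overlapped, and both lay below WT. On the log2 scale the fold change was -0.54 ± 0.15 versus WT, -0.42 ± 0.15 for NC versus WT and -0.11 ± 0.15 versus NC.

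EPHA7, a receptor with a role in cell sorting in the developing brain, ranged from 54.1 to 61.1 normalized CPM in WT, from 40.2 to 53.7 in NC and from 41.0 to 58.6 in ESX1. The ESX1 range overlapped both control ranges, and the log2 fold change was -0.26 ± 0.15 versus WT and -0.01 ± 0.15 versus NC. EPHB3, which with EPHB2 positions cells in the intestinal crypt, ranged from 6.12 to 11.9 in WT, from 9.33 to 16.2 in NC and from 9.66 to 15.3 in ESX1. All 3 ranges of EPHB3 overlapped, with a log2 fold change of 0.55 ± 0.28 versus WT and 0.01 ± 0.27 versus NC.

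EPHB2 was the tested receptor whose WT samples differed most from each other, relative to their level. Normalized CPM values were 0.87, 2.48 and 7.83 in WT, 2.49, 3.00 and 3.66 in NC, and 6.69, 5.53 and 3.69 in ESX1. The ESX1 samples lay within the WT range and above NC, although ESX1 replicate 3 was next to NC replicate 3. This gave a log2 fold change of 0.51 ± 0.49 versus WT, 0.82 ± 0.50 versus NC and -0.31 ± 0.51 for NC versus WT. WT replicate 3 decided the comparisons with WT. Without it the log2 fold change was 1.73 for ESX1 versus WT and 0.91 for NC versus WT, with the sign turned.

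EPHA3, a receptor of ephrin-A5, was close to the limit of detection and did not pass the filter on low counts. It had 0, 3 and 6 read pairs in WT, 1, 1 and 4 in NC and 0, 0 and 0 in ESX1. A count of 0 allows up to 3 read pairs, which is 0.303, 0.300 and 0.551 normalized CPM in the ESX1 samples, and the WT and NC samples ranged from 0 to 0.627. A difference was therefore not detectable at this depth.

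Of the 10 receptors, 3 lay above all 6 controls in every ESX1 sample (EPHA2, EPHA4 and EPHB1) and 2 below (EPHA6 and EPHB4). The shares over all tested genes were 6.39% above and 7.21% below. The median log2 fold change of the 9 tested receptors was 0.51 versus WT, 0.01 versus NC and -0.31 for NC versus WT, and over all tested genes it was 0.01, 0 and 0.01.

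**Figure D2:**
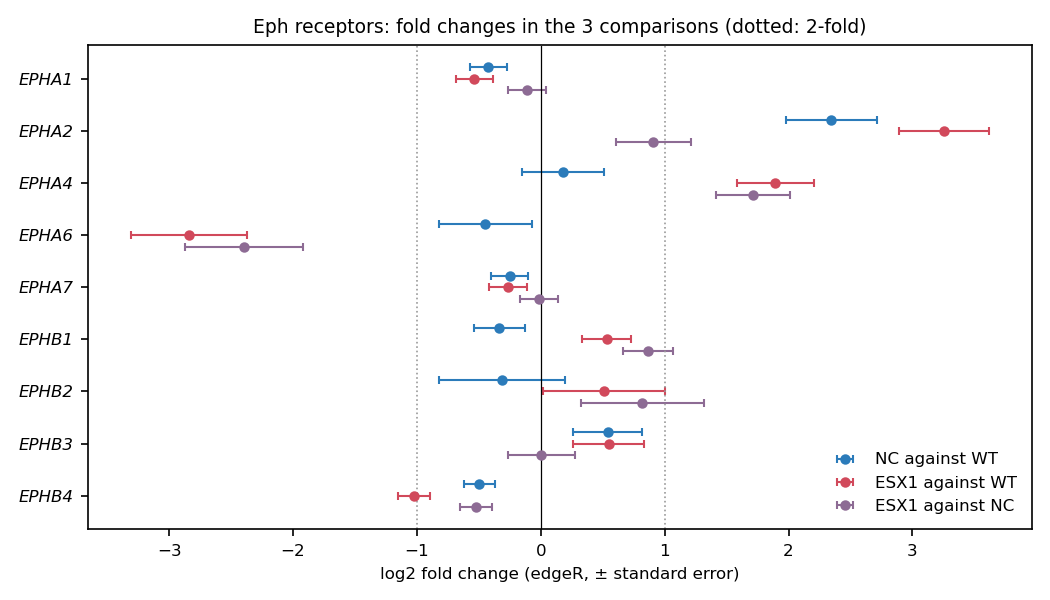
Log2 fold change (horizontal axis) with its standard error for the 9 Eph receptors tested, in the 3 comparisons of the groups. Dotted lines mark a 2-fold difference. EPHA4 and EPHA6 lie beyond them in both comparisons with ESX1 and inside them for NC versus WT, while EPHA2 lies beyond them for both comparisons with WT.

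Levels of different receptors were compared per length, as normalized CPM per 1000 bases of exon (FPKM). In WT the mean FPKM was 25.4 ± 1.86 (SD, n = 3) for EPHB4, 10.3 ± 0.57 for EPHA1 and 7.65 ± 0.49 for EPHA7, 3 levels that did not overlap. EPHB3 (1.82 ± 0.70) and EPHB1 (1.64 ± 0.14) followed and overlapped. EPHA6 (0.644 ± 0.20), EPHA2 (0.503 ± 0.34), EPHA4 (0.363 ± 0.10) and EPHB2 (0.298 ± 0.29) overlapped each with the next, and EPHA3 was lowest at 0.0531 ± 0.048.

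The first 3 places stayed with EPHB4, EPHA1 and EPHA7 in NC and ESX1, although EPHA1 and EPHA7 overlapped there. EPHA2 stood at place 7 in WT, place 5 in NC (2.62 ± 0.23 FPKM) and place 4 in ESX1 (4.90 ± 2.06), where it overlapped with EPHA7 (6.36 ± 1.30) and EPHB3 (2.67 ± 0.64). EPHA4 stood at place 8 in both controls and at place 7 in ESX1, at 1.32 ± 0.24 FPKM with no overlap with either neighbour. EPHA6 moved from place 6 in WT and 7 in NC to place 9 in ESX1 (0.0839 ± 0.053).

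EPHB4 made up 52.1% ± 3.36 of the summed FPKM of the 10 receptors in WT, 45.1% ± 0.82 in NC and 33.0% ± 1.11 in ESX1. The share of EPHA2 was 1.04% ± 0.70 in WT, 6.58% ± 0.68 in NC and 12.7% ± 3.36 in ESX1, and neither share overlapped between groups. The share of EPHA4 was 0.75% ± 0.22, 1.02% ± 0.34 and 3.56% ± 0.78. The share of EPHA1 was 21.2% ± 1.38, 19.3% ± 1.69 and 18.8% ± 0.46, with overlap of NC with both WT and ESX1.

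**Figure D3:**
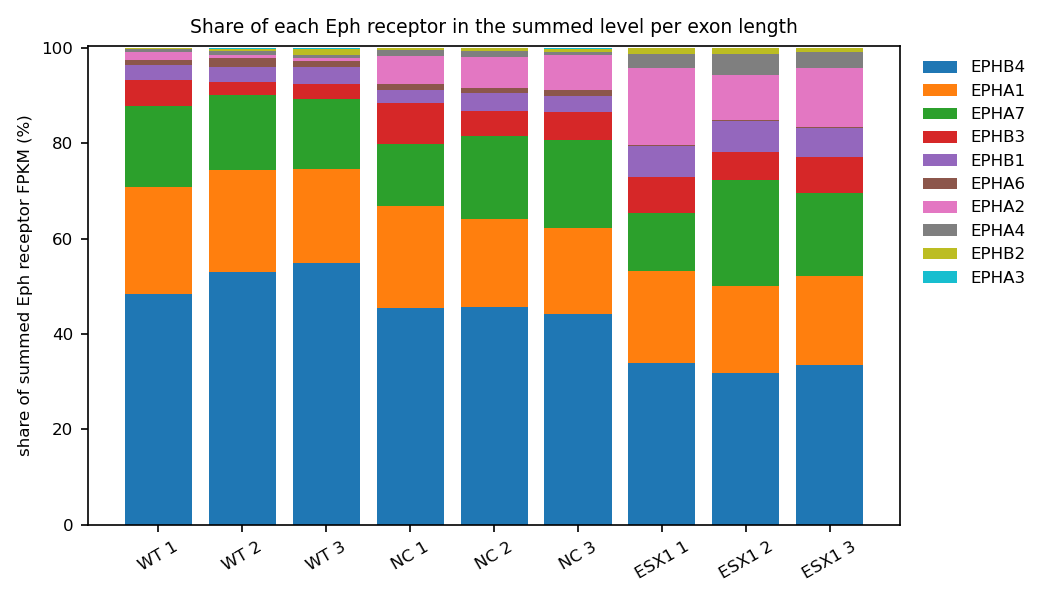
Share (vertical axis, percent) of each of the 10 Eph receptors in their summed FPKM, 1 bar per sample, with 3 bars each for WT, NC and ESX1. The EPHB4 segment at the bottom takes 48.4% to 54.9% in WT and 31.8% to 33.9% in ESX1, and the EPHA2 segment 0.61% to 1.84% and 9.48% to 16.2%.

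The summed FPKM of the 6 EPHA receptors was 19.5 ± 1.17 in WT, 17.7 ± 0.34 in NC and 19.8 ± 2.85 in ESX1, with ranges of WT and ESX1 that overlapped. That of the 4 EPHB receptors was 29.1 ± 1.73, 22.2 ± 1.30 and 17.9 ± 3.48, with overlap between NC and ESX1. The ratio of the EPHA to the EPHB sum was 0.748, 0.681 and 0.592 in WT, 0.743, 0.804 and 0.844 in NC, and 1.04, 1.199 and 1.09 in ESX1. WT and NC overlapped in this ratio, and all ESX1 samples were above them. Without EPHB4, the EPHB sum was 3.76 ± 0.60, 4.21 ± 0.59 and 5.45 ± 1.15 FPKM, and NC overlapped with both WT and ESX1.

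The total counts ranged from 5212804 read pairs in ESX1 replicate 3, the shallowest sample, to 10644408 in WT replicate 3. The mitochondrial share of counts was 17.0% to 18.3% in WT, 14.5% to 15.3% in NC and 19.2% to 19.9% in ESX1. The summed normalized CPM of 8 seminoma and germ cell markers (POU5F1, NANOG, SOX17, TFAP2C, PRDM1, KIT, PDPN and LIN28A), all of them detected, was 3630 to 4430 in WT, 2670 to 2870 in NC and 1480 to 1810 in ESX1, so the markers of the labelled cell type were present and their sum was lower in ESX1. The other 7 lay below all controls in every ESX1 sample, while SOX17 overlapped (193 to 257, 246 to 254 and 197 to 294). The sum of 3 endothelial markers, mostly VWF, was 11.8 to 16.4, 20.3 to 29.5 and 31.5 to 42.3, while PECAM1 had 0, 2 and 9 read pairs per group and CDH5 26, 3 and 13. The sums of the other lists overlapped between ESX1 and at least 1 control, with 72.4 to 82.6, 63.1 to 72.2 and 54.9 to 66.1 for 2 embryonal carcinoma markers, 25.5 to 30.4, 26.1 to 30.6 and 18.7 to 40.8 for 4 Sertoli cell markers, and 182 to 337, 132 to 169 and 108 to 226 for 4 fibroblast markers. Single markers in these lists, picked out here after their values were seen, did differ. COL1A1 was at 2.33 to 5.68 in WT, 15.5 to 20.0 in NC and 9.96 to 29.7 in ESX1, and COL1A2 at 173 to 334, 116 to 149 and 93.8 to 196. SOX9, a Sertoli cell marker, was at 2.18 to 2.82, 0.643 to 1.63 and 3.32 to 5.78, with every ESX1 sample above the controls, and INHA at 1.603 to 1.88, 1.22 to 1.29 and 0.304 to 1.11, with every ESX1 sample below. SOX2, an embryonal carcinoma marker, was at 1.88 to 5.46, 6.74 to 11.8 and 5.48 to 10.2. The other marker of that list, DNMT3B, went the other way from WT, at 66.9 to 80.3, 56.4 to 60.6 and 44.7 to 58.15. The sum of 4 Leydig cell markers was 1.17 to 2.73, 2.04 to 2.70 and 1.21 to 4.46, with HSD3B2 and INSL3 at 0, and that of 3 leukocyte markers was at most 1.04, with CD3E at 0. The part of the mitochondrial share and of these markers in the differences of the receptors was not tested. In bulk RNA, fewer cells of a type and less RNA per cell cannot be told apart.

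Of the 8 ephrin ligands, listed by class and not by their values here, 7 were tested. In ESX1 versus WT, EFNA1 rose and EFNA5 fell past the threshold, 1 of 7 each way beside 6.78% of all tested genes higher and 4.77% lower. The median log2 fold change of the 7 was -0.33 (all tested genes 0.01). In ESX1 versus NC and in NC versus WT, 0 of 7 passed in edgeR and 0 in DESeq2, with 3 of 7 at an unadjusted p below 0.05 in edgeR in each and medians of -0.40 and 0.26. The shares of all tested genes there were 1.08% and 0.699%, and 3.12% and 2.15%.

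EFNA1, the ephrin-A1 gene, had 14.4, 9.18 and 4.91 normalized CPM in WT, 17.2, 16.0 and 20.5 in NC, and 25.96, 31.5 and 29.4 in ESX1. The 3 groups did not overlap and lay in the same order as those of its receptor EPHA2. The fold change on a log2 scale was 1.61 ± 0.26 versus WT (adjusted p = 0.000236, edgeR), 0.91 ± 0.27 for NC versus WT (adjusted p = 0.0247, edgeR) and 0.69 ± 0.25 versus NC (adjusted p = 0.148, edgeR). Against WT it passed under all 17 settings, with values from 1.27 to 2.06.

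EFNA5, a ligand of several EPHA receptors, had 85.5, 77.5 and 48.6 normalized CPM in WT, 47.1, 45.6 and 39.2 in NC, and 37.1, 36.5 and 30.1 in ESX1. Each group lay below the one before it, with WT replicate 3 close to NC. On the log2 scale the fold change was -1.02 ± 0.18 versus WT (adjusted p = 0.000367, edgeR), -0.68 ± 0.17 for NC versus WT (adjusted p = 0.0119, edgeR) and -0.34 ± 0.18 versus NC (adjusted p = 0.377, edgeR). The difference from WT lay at the 2-fold limit and passed under 10 of 17 settings. It was short of 2-fold without WT replicate 1 (-0.86), WT replicate 2 (-0.96), NC replicate 3 (-0.998) or ESX1 replicate 3 (-0.91).

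EFNB2, the ligand of EPHB4, had 96.5, 103 and 58.3 normalized CPM in WT, 97.0, 101.1 and 109 in NC, and 61.7, 61.6 and 52.7 in ESX1. ESX1 lay below NC, and WT replicate 3 lay within the ESX1 range. This gave a log2 fold change of -0.80 ± 0.17 versus NC (adjusted p = 0.00811, edgeR) and -0.55 ± 0.17 versus WT (adjusted p = 0.0198, edgeR), both short of 2-fold. Over 17 settings the adjusted p reached 0.061 versus NC and 0.121 versus WT (edgeR, DESeq2 and limma). EFNB1, a ligand of EPHB receptors, had 34.8, 40.5 and 35.6 in WT, 54.6, 55.2 and 48.1 in NC, and 33.9, 31.6 and 28.6 in ESX1. NC was above both other groups, with a log2 fold change of -0.74 ± 0.13 for ESX1 versus NC (adjusted p = 0.003, edgeR), 0.51 ± 0.13 for NC versus WT (adjusted p = 0.0124, edgeR) and -0.23 ± 0.13 for ESX1 versus WT (adjusted p = 0.211, edgeR). In NC versus WT the adjusted p reached 0.0548 for EFNB1, 0.0762 for EFNA5 and 0.0991 for EFNA1 over 17 settings (edgeR, DESeq2 and limma).

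EFNB3 ranged from 2.73 to 5.33 normalized CPM in WT, 2.24 to 3.21 in NC and 1.41 to 2.94 in ESX1, with a log2 fold change of -0.92 ± 0.38 versus WT (adjusted p = 0.0781, edgeR). It passed the threshold without WT replicate 1 (-1.15) or without ESX1 replicate 1 (-1.28). EFNA2 ranged from 1.41 to 5.08 and EFNA4 from 2.11 to 4.78 over the 9 samples, and neither passed in any comparison (lowest adjusted p = 0.314, edgeR). EFNA3 was not tested, with 0 to 18 read pairs per sample, and 44.7% of its exon bases lie in another gene, RP11-540D14.8. The summed FPKM of the ephrin-A ligands was 22.1 ± 4.06, 22.3 ± 0.75 and 22.7 ± 0.59 in WT, NC and ESX1, and that of the ephrin-B ligands 31.7 ± 5.69, 39.7 ± 0.51 and 23.3 ± 1.99.

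**Figure D4:**
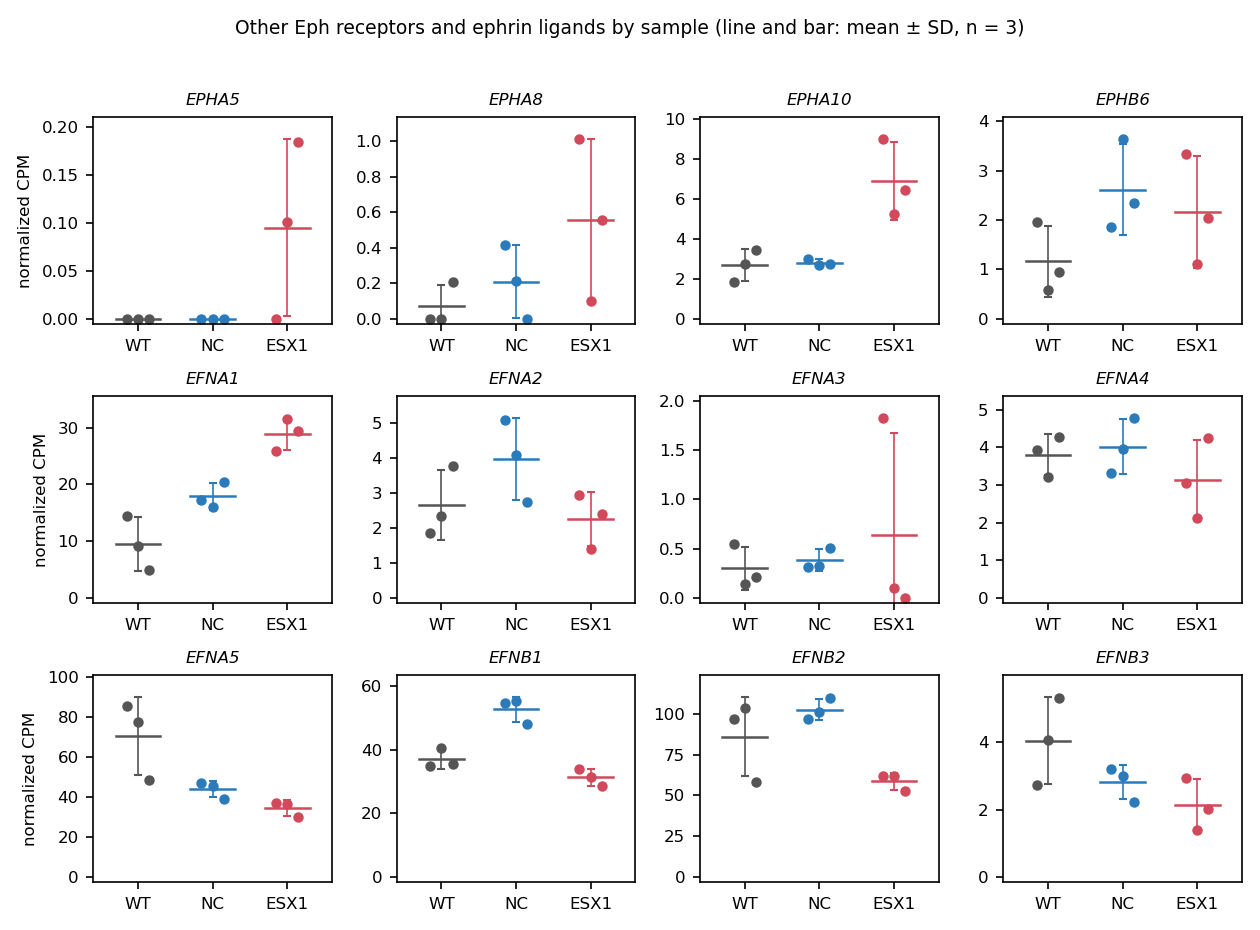
Normalized CPM (vertical axis, linear) of the 4 other Eph receptors and the 8 ephrin ligands in the 3 WT, 3 NC and 3 ESX1 samples, with the group mean and SD. All ESX1 points of EPHA10 and EFNA1 lie above all control points, and those of EFNA5 and EFNB1 below.

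Among the 4 other Eph receptors, EPHA10, a member whose kinase domain lacks residues needed for catalysis, had 1.86, 2.77 and 3.45 normalized CPM in WT, 3.01, 2.68 and 2.75 in NC, and 9.02, 5.23 and 6.47 in ESX1. The controls overlapped and every ESX1 sample was above them, the pattern also seen for EPHA4. EPHA10 rose by a log2 fold change of 1.36 ± 0.32 versus WT (adjusted p = 0.00394, edgeR) and 1.30 ± 0.31 versus NC (adjusted p = 0.0234, edgeR). Against NC this call was lost without any 1 of the 3 NC replicates or without ESX1 replicate 1 or 3, with an adjusted p from 0.00904 to 0.122 (edgeR, DESeq2 and limma) over 17 settings. EPHB6, also without kinase activity, ranged from 0.58 to 3.64 over the 9 samples and did not pass, and was past the threshold for NC versus WT only without WT replicate 1 (1.72). EPHA8 had 0 to 10 read pairs per sample, and EPHA5 0 in the 6 controls and 0, 1 and 1 in ESX1, and neither was tested.

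Of 39 listed partners of Eph signalling, 35 were tested. In ESX1 versus WT, 1 rose and 2 fell past the threshold, beside 6.78% of all tested genes higher and 4.77% lower. In ESX1 versus NC and in NC versus WT, NGEF alone fell, and no partner rose (18, 7 and 11 of 35 were at an unadjusted p below 0.05 in edgeR, and DESeq2 called 3, 1 and 1). The shares of all tested genes were 1.08% higher and 0.699% lower versus NC, and 3.12% and 2.15% for NC versus WT. The median log2 fold change of the 35 was -0.02, -0.05 and 0.00.

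NGEF encodes ephexin-1, a signalling protein that acts downstream of EPHA4. It had 34.7, 43.3 and 80.3 normalized CPM in WT, 20.3, 19.9 and 17.1 in NC, and 8.72, 6.84 and 9.42 in ESX1. The groups did not overlap, and the order from high to low was WT, NC, ESX1. The fold change on a log2 scale was -2.68 ± 0.26 versus WT (adjusted p = 1.32e-06, edgeR), -1.21 ± 0.27 versus NC (adjusted p = 0.0126, edgeR) and -1.47 ± 0.24 for NC versus WT (adjusted p = 0.000543, edgeR). Against NC the call was lost without NC replicate 1 (adjusted p = 0.0515, edgeR) or NC replicate 2 (adjusted p = 0.0507, edgeR). Of the exon bases of NGEF, 4.34% lie in other genes.

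GRB7, an adaptor that binds activated receptor tyrosine kinases, had 21.1, 26.2 and 33.1 normalized CPM in WT, 17.5, 12.9 and 14.25 in NC, and 11.9, 9.76 and 15.15 in ESX1. Relative to WT it fell by 1.15 ± 0.21 (log2) (adjusted p = 0.000619, edgeR), and NC and ESX1 overlapped. Without WT replicate 3 this log2 fold change was -0.97 and with limma -0.92, both short of 2-fold. It was -0.85 ± 0.21 for NC versus WT (adjusted p = 0.00884, edgeR) and -0.30 ± 0.215 for ESX1 versus NC (adjusted p = 0.556, edgeR). RHBDL2, a rhomboid protease known for cleaving ephrin-B3, had 2, 1 and 4 read pairs in WT, 10, 6 and 4 in NC and 10, 16 and 6 in ESX1. It rose by a log2 fold change of 2.16 ± 0.68 versus WT (adjusted p = 0.0239, edgeR). That call was lost without WT replicate 1 or 2, without ESX1 replicate 2 or 3, with no filter beyond 1 count, and with limma (0.60). The adjusted p ranged from 0.0221 to 0.10 (edgeR, DESeq2 and limma) over 15 settings. NC overlapped both other groups. The log2 fold change of RHBDL2 was 1.32 ± 0.71 for NC versus WT (adjusted p = 0.218, edgeR) and 0.84 ± 0.58 for ESX1 versus NC (adjusted p = 0.542, edgeR).

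The genes whose profile over the 9 samples was most like that of EPHA4 were CASQ2, TCEAL1, ERBB4, AOX1 and SCHIP1. Likeness was the root mean square difference of log2 values after each gene was centred on its own mean, with 0.5 added to each normalized CPM before the log2. The differences were 0.209, 0.256, 0.259, 0.288 and 0.294. The added 0.5 shrinks differences at low levels, as in the control means of AOX1 and TCEAL1. ERBB4 is a receptor tyrosine kinase of the EGF receptor family, with a mean of 0.576 normalized CPM in WT, 0.943 in NC and 2.91 in ESX1. AOX1, the aldehyde oxidase gene, was at 0.168, 0.494 and 2.75, and SCHIP1 at 1.82, 2.79 and 7.47. CASQ2, the cardiac calsequestrin gene, was at 0.604, 0.735 and 2.56, and TCEAL1 at 0.410, 0.352 and 1.58.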

How the data were processed

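The authors aligned the read pairs of 9 TCam-2 samples (3 WT, 3 NC and 3 ESX1) to GRCh38 with HISAT2 2.0.5 and deposited unnormalized counts per gene from featureCounts, version 1.5.2 in the table's header and 1.6.5 in the submitters' processing notes. The header names GENCODE 26, the methods another release. The strand option was not used, although the library kit keeps strand. The authors also deposited log2 values, normalized with DESeq2 by a transformation not named. Rows of both tables were paired by order, and a count of 0 went with the lowest log2 value in every row (tolerance 1e-06, 0 exceptions). The identifiers of 10 of 10 receptors matched their symbol in a reference table. Columns of the labels' 9 samples were used, and 0 other sample columns were present.

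Counts were fitted in R 4.3.3 with edgeR 4.0.16 (filterByExpr with the 3 groups, TMM factors, glmQLFit over all 9 samples, glmQLFTest), with Benjamini-Hochberg adjustment over 18452 tested genes and a residual of 6 degrees of freedom. Standard errors were derived from the fold change and its F statistic. Normalized CPM uses the TMM-scaled library size, and FPKM divides it by the exon length of the table. A count of 0 was given a limit of 3 counts, which covers counting error only. Total counts per sample are given with the marker levels, and low receptors such as EPHA3 and EPHA6 are limited by them.

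Alternatives were DESeq2 1.42.0, RLE factors, other count filters, a fit of 6 samples, a replicate block, leaving out each sample, limma 3.58.1 on the log2 values, and no minimum fold. Here 17 settings are the reported fit and its 16 alternatives with a fold limit. Promoter windows and their build are from RefSeq (GRCh38.p14).

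Named were all receptors and ligands, ESX1, each partner past the threshold in 1 or more comparisons, and the 5 tested genes most like EPHA4. The receptors, the lists and the tests were chosen with earlier results of these data known. ERBB4 is also in a list of other receptor tyrosine kinases, of which counts are given.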

Additional observations from a re-analysis of the deposited data

How the results depend on the processing

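Of 423 values of the receptors under the alternatives, 14 moved by more than the spread between replicates and 409 did not, and none of the receptors past the threshold changed direction. Sign changes of receptors short of the threshold were not counted. Without 1 sample, EPHA7 (-0.204 to 0.085) and EPHB3 (-0.217 to 0.276) in ESX1 against NC and EPHB2 (-0.797 to 0.912) in NC against WT did change sign. Of 616 values of the other named genes, 8 changed sign, all without 1 sample and none past the threshold: the log2 fold change then ranged from -0.55 to 0.098 and included 0.014 for EFNA2 in ESX1 against WT, from -0.79 to 0.075 and included 0.041 for EPHB6 in ESX1 against NC, from -0.16 to 0.30 for EPHA10 in NC against WT, from -0.059 to 0.21 and included -0.035 for EFNA4 in NC against WT, and from -0.20 to 0.004 for ESX1 in NC against WT. The call was lost in 25 of these values and gained in 6.

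For ESX1 against WT, ESX1 against NC and NC against WT in turn, the calls over all genes were 2131, 328 and 973. With at least 10 counts in every sample they were 1192, 200 and 563, with limma on the authors' values 937, 177 and 338, and with no minimum fold 5306, 784 and 3158. Without 1 sample they ranged from 1772 to 2529, from 209 to 434 and from 686 to 1338. The receptors called were 4, 2 and 1. They were 1, 1 and 0 with at least 10 counts. There EPHA2, EPHA6 and EPHB2 were not tested, and EPHB4 was tested but not called in ESX1 against WT. The receptors called were 1 for ESX1 against NC with limma, and 4 and 2 in the last pair of comparisons with no minimum fold. The ligands called were 2, 0 and 0. For ESX1 against WT they were 1 with at least 10 counts, with only the 6 samples compared and with limma, and 1 to 3 without 1 sample. For ESX1 against NC they were 2 with no minimum fold, and for NC against WT 3 with no minimum fold and 0 to 1 without 1 sample. The partners called were 3, 1 and 1. They were 15, 3 and 6 with no minimum fold, 1 and 0 in the comparisons of ESX1 with limma, 0 to 1 for ESX1 against NC without 1 sample and 1 to 3 for NC against WT. Apart from the stricter filter and the threshold, the cause was not tested. In EPHA10 against WT the call was lost with limma (0.81), the value in EPHA10 against NC being 0.76.

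The reported fit did not pair samples by the replicate numbers in the titles. With 3 samples per group, the check below cannot decide whether same-numbered samples belong together. The titles number the ESX1 samples 1, 2 and 3 and their library names 1, 3 and 5, and the check and the block rest on the titles. Correlations of same-numbered samples' deviations from their group means ranged from -0.034 to 0.221 over 9 pairs of samples. Each ESX1 sample was set against WT and against NC, and each NC sample against WT. In 5 of these 9 cases the best partner had the same number. With a replicate block the calls over all genes were 2109, 358 and 1003. No scaling moved the median of all genes by more than 0.05.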

Other observations

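Receptor tyrosine kinases outside the Eph family were counted from a list of 44 genes, of which 35 were tested with edgeR. In ESX1 against WT, 5 rose and 7 fell past the threshold (6.78% and 4.77% of all tested genes), with 23 of 35 at an unadjusted p below 0.05. In ESX1 against NC, 2 rose and 0 fell (1.08% and 0.699%), with 15 of 35 at an unadjusted p below 0.05. In NC against WT, 1 rose and 4 fell (3.12% and 2.15%), with 18 of 35 at an unadjusted p below 0.05.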
